A study of Rattus norvegicus with 12 samples.

Results

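The genes described here are the plasminogen activators, their surface receptor and a set of protease inhibitors, namely Plau, Plaur, Plat, Serpine2, Serpinb2, Timp1, Timp2, Timp3 and Reck. They were chosen by name, and every probe set whose only gene symbol in the array annotation was one of these names was taken. This gave 15 probe sets of the 31042 tested, for 9 of the 14217 genes with a probe set of their own. RNA of adherent F111 cells (A16) and of colony derived F111 cells (Colony) was measured on Affymetrix rat arrays, 3 per group. F111 is an established fibroblast line from the Fischer rat, and the study's karyotypes found chromosomal abnormalities in it. A16 cells had been attached to plastic for 16 h. Colony cells had first been kept in suspension for 16 h (the NA16 state), then grown for 7 days as colonies in soft agar, taken out of the agar and allowed a brief attachment before RNA was taken. All cells were kept in Dulbecco's medium with fetal calf serum.

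Biological replicate 1, biological replicate 2 and an array labelled technical replicate 2 made up each group. The label of the technical array does not say which culture it came from. By choice it was averaged with biological replicate 1 of its group on the log2 scale, which left n = 2 cultures in each group. The source name of Colony biological replicate 2 speaks of tumour formation while its other label fields name the colony, so results are also given without it. The p-values rest on the spread between these cultures, which may be partly technical, and on no wider source of variation. In limma the variance of each probe set was also drawn toward a value shared by all probe sets (4.757 prior degrees of freedom). RMA, the summary used for all values unless PLIER is named, gave array medians between 97.6 and 101 intensity units. The SD of log2 differences between arrays over all probe sets was 0.17 to 0.33 within a group and 0.67 to 0.76 between the groups. In A16 it was 0.17 between the technical array and biological replicate 1, and 0.30 between the technical array and biological replicate 2. In Colony these values were 0.22 and 0.24, nearly alike. A log2 difference is Colony minus A16, and an FC value is the ratio of Colony over A16, written as a negative inverse where Colony was lower. A probe set was called higher or lower in Colony where limma gave a Benjamini-Hochberg adjusted p under 0.05 over all probe sets and the change was over 2-fold. In these bulk samples, fewer cells that make an RNA and less of it per cell cannot be told apart.

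Plasminogen activators are secreted serine proteases that cut plasminogen into plasmin, which digests fibrin and matrix proteins and releases latent metalloproteases and growth factors. The serpins trap serine proteases in an inactive complex, the tissue inhibitors of metalloproteases (Timps) plug the active site of metalloproteases, and Reck holds several of them in check at the cell membrane. In fibroblasts these genes are known for their part in wound repair, matrix turnover and invasion.

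Among the members, the activator Plat and the inhibitor Serpinb2 were lower in Colony cells, and the membrane-bound inhibitor Reck was higher. Serpine2 was close to 2-fold higher and Timp1 about 1.49-fold lower, and neither reached the 2-fold limit. Of the 15 probe sets, 1 was called higher, 2 were called lower and 12 did not pass. Over all probe sets 4.0% were called higher, 5.81% lower and 9.81% in either direction, or 3045 probe sets in all. Whether the share of the members differs from that share was not tested. At any fold, 5 of the 15 had an adjusted p under 0.05, where 22.7% of all probe sets did. For 6 of the 15 the groups did not overlap and lay the same way in RMA and in PLIER, which held for 36.5% of all probe sets. The median log2 difference was 0.02 over the member probe sets and 0.05 over all probe sets.

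**Figure D1:**
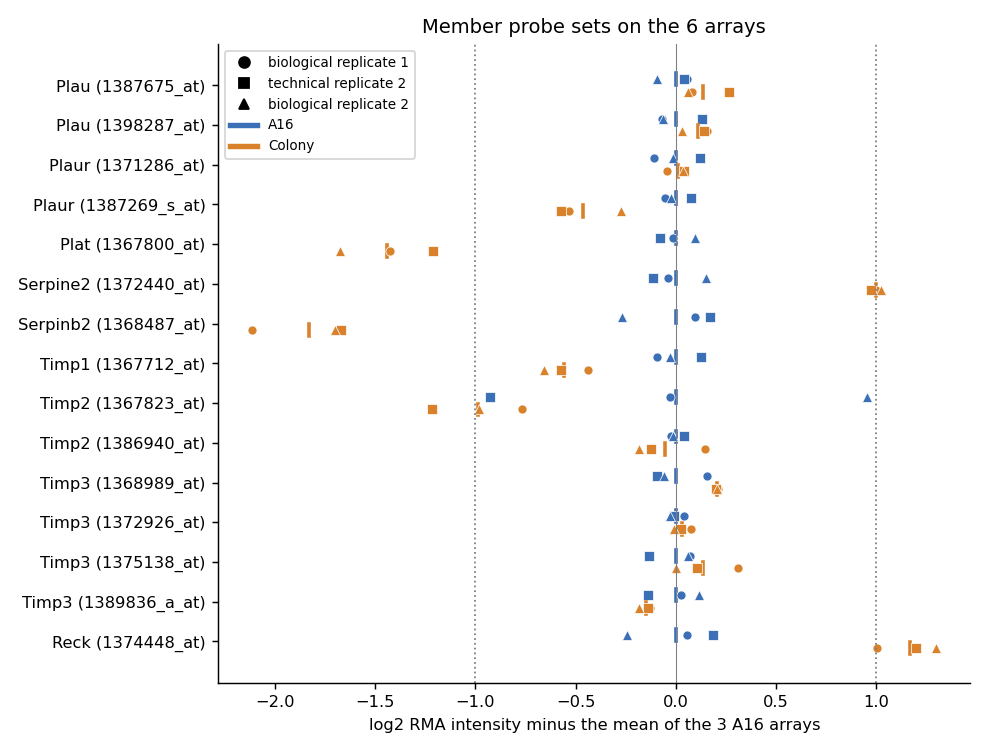
The log2 RMA intensity of each of the 15 member probe sets by array, set to 0 at its own A16 mean over 3 arrays. Blue marks are A16 and orange marks Colony, the marker shape gives the replicate, the short bars are the means over 3 arrays, and the dotted lines mark a log2 difference of 1 either way. Plat and Serpinb2 lie far to the left and Reck and Serpine2 far to the right on all Colony arrays, and the A16 arrays of Timp2 (1367823_at) are scattered from 561.6 to 2070 intensity units.

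Plat encodes tissue-type plasminogen activator, the activator best known from fibrin breakdown in blood vessels. On the A16 arrays its probe set (1367800_at) read 113.8 in biological replicate 1, 108.8 in technical replicate 2 and 122.8 in biological replicate 2. On the Colony arrays in the same order it read 42.7, 49.6 and 36.0. Every Colony value lay below every A16 value, and the gap between the groups was wider than the spread within either. The mean log2 intensity was 6.87 ± 0.10 (SD, n = 2 cultures) in A16 and 5.35 ± 0.25 in Colony, a log2 difference of -1.52 (SE 0.16, 95% confidence interval -1.91 to -1.13) and an FC of -2.87. The adjusted p from limma was 0.00112. The direction was the same in PLIER, where A16 arrays read 174.1, 165.6 and 167.6 and Colony arrays 34.2, 31.8 and 29.9, but the PLIER change was larger, with an FC of -5.37. The Colony values of Plat lay at percentile 25.3 of all probe sets in RMA, where signal is dim, so the size of its fall is less certain than its direction. Without Colony biological replicate 2 the log2 difference was -1.34 (adjusted p = 0.00406, limma), with the lone culture assumed to vary like the A16 cultures.

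Plau encodes urokinase, the activator that works mainly at the cell surface. Probe set 1387675_at read 26.0, 25.7 and 23.4 in A16 and 26.4, 30.1 and 26.1 in Colony. Probe set 1398287_at read 29.0, 33.2 and 29.1 in A16 and 33.8, 33.5 and 31.0 in Colony. The values of 1387675_at were separated by a narrow margin in RMA and overlapped in PLIER, and those of 1398287_at overlapped in both. The log2 differences were 0.14 (95% confidence interval -0.18 to 0.46, adjusted p = 0.528, limma) and 0.10 (-0.21 to 0.42, adjusted p = 0.647), so a change over 2-fold lies outside both intervals. These probe sets lay at percentiles 10.1 and 16.5 of all probe sets in A16 and 11.5 and 17.2 in Colony, where array signal is dim and differences are compressed.

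Plaur encodes the urokinase receptor, a lipid-anchored surface protein that gathers urokinase on the cell. Its probe set 1387269_s_at, of the kind that can also match related transcripts, read 1355, 1483 and 1381 in A16 and 969.8, 943.5 and 1163 in Colony. All Colony arrays were lower in RMA and in PLIER, and biological replicate 2 of Colony stood closest to A16. The log2 difference was -0.41 (SE 0.15, 95% confidence interval -0.76 to -0.06), with an adjusted p of 0.0982 from limma, and it did not pass. The other probe set, 1371286_at, read 41.3, 48.5 and 44.2 in A16 and 43.3, 45.8 and 45.7 in Colony. There the groups overlapped, with a log2 difference of 0.02 (adjusted p = 0.937). Probe set 1371286_at was much dimmer, at percentiles 29.7 in A16 and 29.0 in Colony, against 90.6 and 87.2 for 1387269_s_at. Whether the probe sets of Plaur differ from each other in response was not tested.

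Serpinb2 is plasminogen activator inhibitor type 2, a serpin that acts on urokinase and is held largely inside the cell. It had the largest change of the members in RMA. Its probe set (1368487_at) read 226.0, 238.4 and 175.9 in A16 and 48.9, 66.4 and 65.1 in Colony. The highest Colony array was far below the lowest A16 array. The mean log2 intensity went from 7.66 ± 0.28 (SD, n = 2 cultures) in A16 to 5.93 ± 0.14 in Colony, so that Serpinb2 fell by 1.73 on the log2 scale (SE 0.17, 95% confidence interval -2.14 to -1.32, adjusted p = 0.000861, limma), an FC of -3.32. PLIER gave an FC of -3.06, or -2.77 with 16 added to each value. The Colony values of Serpinb2 lay at percentile 38.3 of all probe sets in RMA, so the size of its fall is less certain than its direction. Without Colony biological replicate 2 the log2 difference was -1.83 (adjusted p = 0.00298, limma).

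Serpine2 is protease nexin 1, a secreted serpin that inhibits thrombin, urokinase and tissue-type activator and is bound by heparan sulphate at the cell surface. Its probe set (1372440_at) read 3578, 3399 and 4086 in A16 and 7341, 7235 and 7477 in Colony. The Colony arrays were nearly equal to each other, and each was far above the highest A16 array. The mean log2 intensity was 11.88 ± 0.16 (SD, n = 2 cultures) in A16 and 12.85 ± 0.03 in Colony. The log2 difference was 0.97 (SE 0.14, 95% confidence interval 0.63 to 1.30, adjusted p = 0.00368, limma), and the FC of 1.96 was just under the limit of 2. PLIER gave an FC of 1.81. Without Colony biological replicate 2 the log2 difference was 0.95 (adjusted p = 0.0177, limma). The call depended on how close the value lay to the limit, since the log2 difference was 1.01 under quantile normalization between arrays, 1.01 with the technical arrays averaged with biological replicate 2, and 1.08 without A16 biological replicate 2.

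Reck encodes a lipid-anchored membrane glycoprotein that inhibits several metalloproteases. Its probe set (1374448_at) read 603.4, 661.2 and 491.0 in A16 and 1163, 1333 and 1430 in Colony. No Colony array came near the A16 range. The mean log2 intensity rose from 9.12 ± 0.26 (SD, n = 2 cultures) in A16 to 10.38 ± 0.14 in Colony, a log2 difference of 1.26 (SE 0.17, 95% confidence interval 0.86 to 1.66, adjusted p = 0.00270, limma). The FC was 2.40 in RMA and 2.43 in PLIER. Without Colony biological replicate 2 the log2 difference was 1.16 (adjusted p = 0.0135, limma).

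The promoters of Serpinb2, Serpine2 and Reck are shown because these inhibitors had the lowest adjusted p-values among the 8 members with a promoter in the RefSeq table used (build GRCr8). Each line gives the 250 bases before the transcript start on the strand of the gene, from 5′ to 3′. Capitals mark the letters TGANTCA, the motif of the AP-1 factors (its reverse complement is of the same form), and GGGCGG, the GC box bound by Sp1, searched on both strands and therefore also seen as CCGCCC. Serpinb2 lies at chr13:24055771-24056020 on the plus strand, Serpine2 at chr9:88637203-88637452 on the minus strand and Reck at chr5:62898467-62898716 on the plus strand.
Serpinb2: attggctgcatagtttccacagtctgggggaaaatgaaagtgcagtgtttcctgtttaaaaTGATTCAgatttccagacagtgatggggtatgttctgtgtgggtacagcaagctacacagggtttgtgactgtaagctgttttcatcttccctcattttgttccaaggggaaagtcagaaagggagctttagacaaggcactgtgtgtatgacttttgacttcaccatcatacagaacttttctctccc
Serpine2: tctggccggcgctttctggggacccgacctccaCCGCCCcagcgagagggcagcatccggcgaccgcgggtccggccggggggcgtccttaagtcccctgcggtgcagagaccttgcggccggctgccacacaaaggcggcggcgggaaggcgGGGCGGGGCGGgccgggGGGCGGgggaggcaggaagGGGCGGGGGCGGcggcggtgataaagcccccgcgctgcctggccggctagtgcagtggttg
Reck: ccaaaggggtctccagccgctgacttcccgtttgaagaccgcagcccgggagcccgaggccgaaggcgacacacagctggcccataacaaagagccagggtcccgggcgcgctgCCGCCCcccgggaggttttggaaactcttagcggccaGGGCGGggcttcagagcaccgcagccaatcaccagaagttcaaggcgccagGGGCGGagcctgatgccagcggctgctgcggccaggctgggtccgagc
The Serpinb2 window, with 43.2% G and C, held 1 AP-1 match (TGATTCA, which starts 189 bases before the transcript start) and no GC box. In contrast, the Serpine2 window, with 76.8% G and C, held 6 GC box matches, some of which overlap, and the Reck window, with 68.4%, held 3. Of the 8 members with a window, an AP-1 match was found in 2, Serpinb2 and Plaur (TGACTCA, 83 bases before the start), against 6.34% of 33469 promoters. A GC box was found in 6 of the 8 (Plau, Serpine2, Timp1, Timp2, Timp3 and Reck) against 30.5% of all promoters. The 33469 promoters are all those of the table, not only those of the 14217 genes with a probe set, so they are a set unlike the members. Whether the shares differ was not tested. These matches are descriptions of the letters and were not tested against the expression values. The promoter of Plat is not shown.

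Timp1, a secreted inhibitor of most metalloproteases that is strongly made by fibroblasts, was moderately lower in Colony. Its probe set (1367712_at) read 7293, 8499 and 7625 in A16 and 5740, 5235 and 4941 in Colony. The groups did not overlap. The mean log2 intensity was 12.92 ± 0.03 (SD, n = 2 cultures) in A16 and 12.35 ± 0.11 in Colony. The log2 difference of -0.57 (SE 0.13, 95% confidence interval -0.89 to -0.26) had an adjusted p of 0.0220 in limma, and the FC of -1.49, the same size in PLIER, was under the 2-fold limit. For PLIER the adjusted p from limma was 0.0517, or 0.0301 with 16 added to each value. With the technical arrays left out the adjusted p was 0.0795, and it was 0.0443 to 0.10 when 1 culture was left out at a time.

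Timp2 takes part in the activation of pro-gelatinase at the membrane besides inhibiting metalloproteases, and its 2 probe sets gave different pictures. Probe set 1386940_at read 10925, 11418 and 10996 in A16 and 12281, 10210 and 9773 in Colony. The groups overlapped, and the log2 difference was -0.08 (95% confidence interval -0.41 to 0.24, adjusted p = 0.734, limma). The other, 1367823_at, read 1046, 561.6 and 2070 in A16 and 627.6, 459.4 and 540.9 in Colony. Here the A16 arrays differed 3.69-fold among themselves, a spread at percentile 99.8 of all probe sets, and the lowest A16 array lay inside the Colony range. The log2 difference of -1.22 (SE 0.41, 95% confidence interval -2.20 to -0.25, adjusted p = 0.0786) did not pass. It rested on A16 biological replicate 2, being -0.51 (adjusted p = 0.105) without that culture and -1.94 (adjusted p = 8.1e-05) without A16 biological replicate 1. With the technical arrays left out it was -1.34 and passed (adjusted p = 0.0294).

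Timp3, the Timp that is bound to the extracellular matrix, was measured by 4 probe sets. Probe set 1368989_at read 46.0, 38.7 and 39.7 in A16 and 47.9, 47.5 and 47.6 in Colony, and 1389836_a_at read 66.5, 59.3 and 70.8 in A16 and 59.7, 59.3 and 57.6 in Colony. Probe set 1375138_at read 28.2, 24.4 and 28.0 in A16 and 33.2, 28.8 and 26.8 in Colony, while 1372926_at stayed between 16.2 and 17.4 on all arrays. For 1368989_at the Colony arrays stood narrowly above A16 in RMA but overlapped with it in PLIER, and for the other probe sets the groups overlapped in RMA. Their log2 differences were 0.22, -0.19, 0.09 and 0.03, with adjusted p-values of 0.287, 0.393, 0.727 and 0.906 from limma, and their 95% confidence intervals in RMA reached no further than -0.51 and 0.52. The PLIER intervals were wider, from -1.51 to 0.50 for 1389836_a_at and from -0.14 to 1.48 for 1375138_at, whose Colony arrays all stood above A16 in PLIER with an FC of 1.59 and an adjusted p of 0.216. Probe sets 1372926_at and 1375138_at were among the 4 member probe sets under percentile 20 in both groups, the Plau probe sets being the others. No detection call came with the deposited values.

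**Figure D2:**
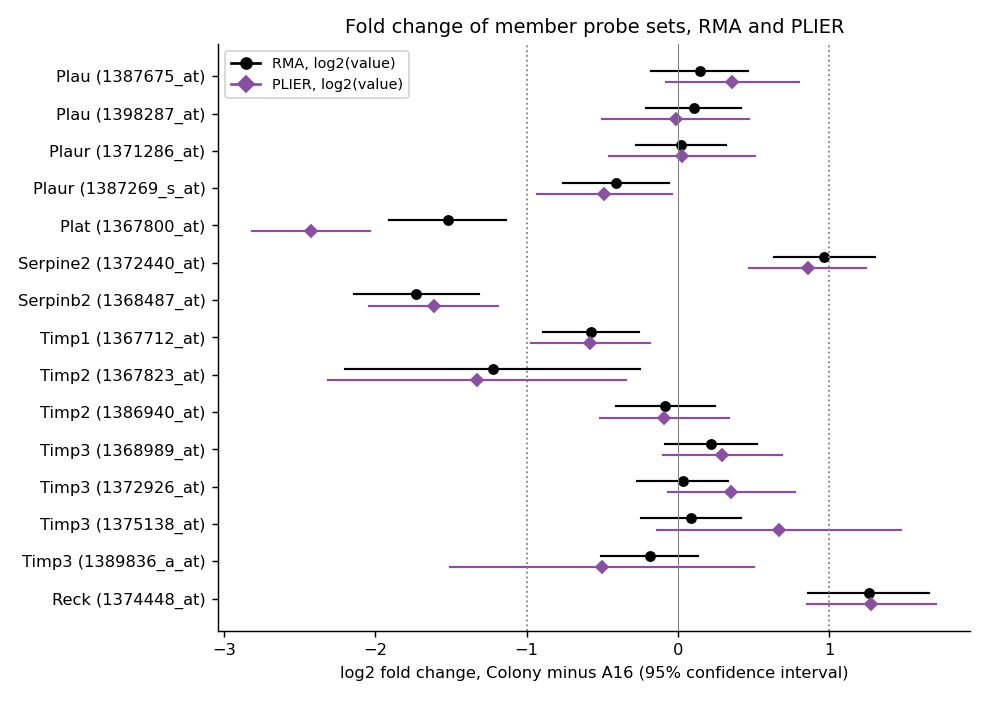
The log2 fold change (Colony minus A16) of each member probe set with its 95% confidence interval from limma, for RMA in black and PLIER in purple, n = 2 cultures per group. Dotted lines mark a log2 value of 1 either way. RMA and PLIER lie close together for most probe sets, whereas Plat is at -1.52 in RMA and -2.43 in PLIER, and the interval of Timp2 (1367823_at) runs from -2.20 to -0.25.

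**Figure D3:**
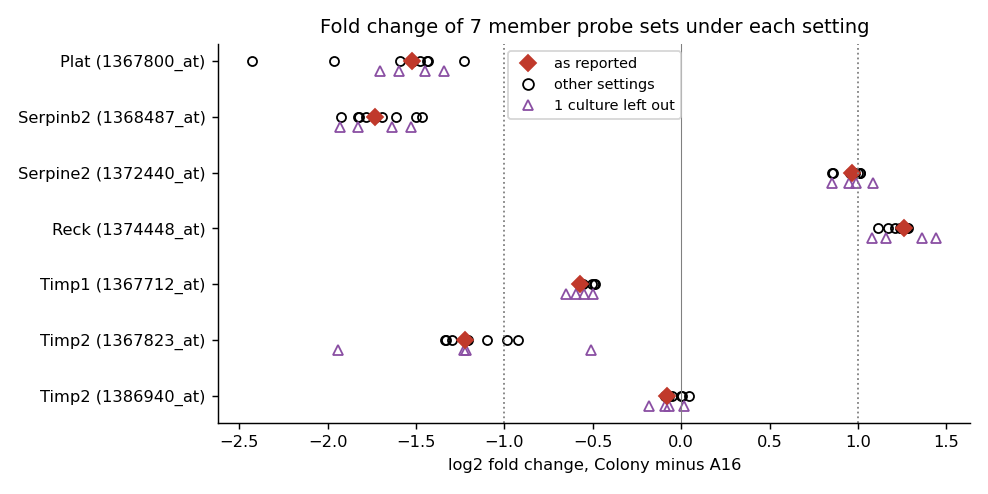
The log2 fold change of 7 member probe sets as reported (red diamonds), under the other settings (open circles) and with 1 culture left out (open triangles). Dotted lines mark a log2 value of 1 either way. Plat, Serpinb2 and Reck stay outside the dotted lines, Serpine2 lies on both sides of the line at 1, and Timp2 (1367823_at) runs from -1.94 to -0.51.

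Among other genes of the plasmin system, Vldlr was lower in Colony. Of 25 listed partners (plasminogen, its binding proteins, clearance receptors, integrins and other regulators) 23 had a probe set, and by the brightest probe set of each gene 0 were called higher, 1 was called lower and 22 did not pass. Over all genes 4.36% were called higher and 4.75% lower. The median log2 difference was 0.03 over the list and 0.05 over all genes. Vldlr encodes a receptor of the low density lipoprotein receptor family that takes up complexes of proteases with serpins. Its probe set 1389611_at read 938.8, 1009 and 799.8 in A16 and 372.4, 398.8 and 387.2 in Colony, with no overlap (log2 difference -1.19, adjusted p = 0.00196, limma), while its 3 other probe sets ranged from -1.30 to -0.04 and 2 of them were also called lower. By the mean of all probe sets of a gene, Vldlr did not pass and 0 partners were called lower. Itgb5, an integrin subunit of vitronectin receptors named here after its values were seen, had a log2 difference of 0.79 (adjusted p = 0.00689, limma) under the 2-fold limit, and 1 of its other probe sets was called higher, at 1.17. Lrp1, the larger receptor of the same family that clears activator and inhibitor complexes, had a log2 difference of -0.28 (adjusted p = 0.229). Plg, the plasminogen gene itself, which is made mainly by the liver, read between 35.2 and 52.2 on all arrays, at percentile 28.3 in A16, with a log2 difference of 0.07 (adjusted p = 0.825).

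Of 30 other genes listed as protease inhibitors, not all of which are known to act as such, 24 had a probe set. Of these 24, 1 was called higher, 4 were called lower and 19 did not pass, with a median log2 difference of 0.10. Over all genes 4.36% were called higher and 4.75% lower, with a median of 0.05. Whether these shares differ was not tested. The listed gene called higher was Serpinb1a, an inhibitor of neutrophil elastase and related proteases. It read 82.3, 125.0 and 78.7 in A16 and 1341, 1497 and 1565 in Colony, a log2 difference of 4.06 (SE 0.16, adjusted p = 2.4e-05, limma), and its second probe set stood at 1.65. Serpinf1, or pigment epithelium derived factor, moved furthest down, from 1450, 1361 and 1294 in A16 to 40.9, 35.0 and 51.3 in Colony (log2 difference -4.94, SE 0.18, adjusted p = 1.6e-05). Its Colony values lay at percentile 28.1, where signal is dim and may be mostly background, so the size of the fall is uncertain. Serpinh1, the collagen chaperone Hsp47, fell by 1.98 on the log2 scale (adjusted p = 0.000945) by probe set 1371310_s_at, while its other probe set stood at -0.69 and was not called. Serpinf1 and Serpinh1 carry the serpin fold but are not known as protease inhibitors. Serpini1, or neuroserpin, which inhibits tissue-type plasminogen activator, read 530.7, 469.6 and 496.1 in A16 and 120.5, 138.0 and 139.4 in Colony (log2 difference -1.89, adjusted p = 0.000165), with its other probe set at -1.40. Cst3, the secreted cysteine protease inhibitor cystatin C, fell by 1.10 on the log2 scale (adjusted p = 0.00148). For each of these 5 genes the groups did not overlap in RMA or PLIER, as for 36.5% of all probe sets. The 5 were named because they were called on the same arrays, which makes overlap unlikely, so this is no further support. Serpinb7 and Cast, named after their values were seen, did not pass by the brightest probe set, but each had 1 other probe set called lower (-1.46 and -1.98). Timp4 read between 26.9 and 31.4 on all arrays, with a log2 difference of 0.15 (adjusted p = 0.499).

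**Figure D4:**
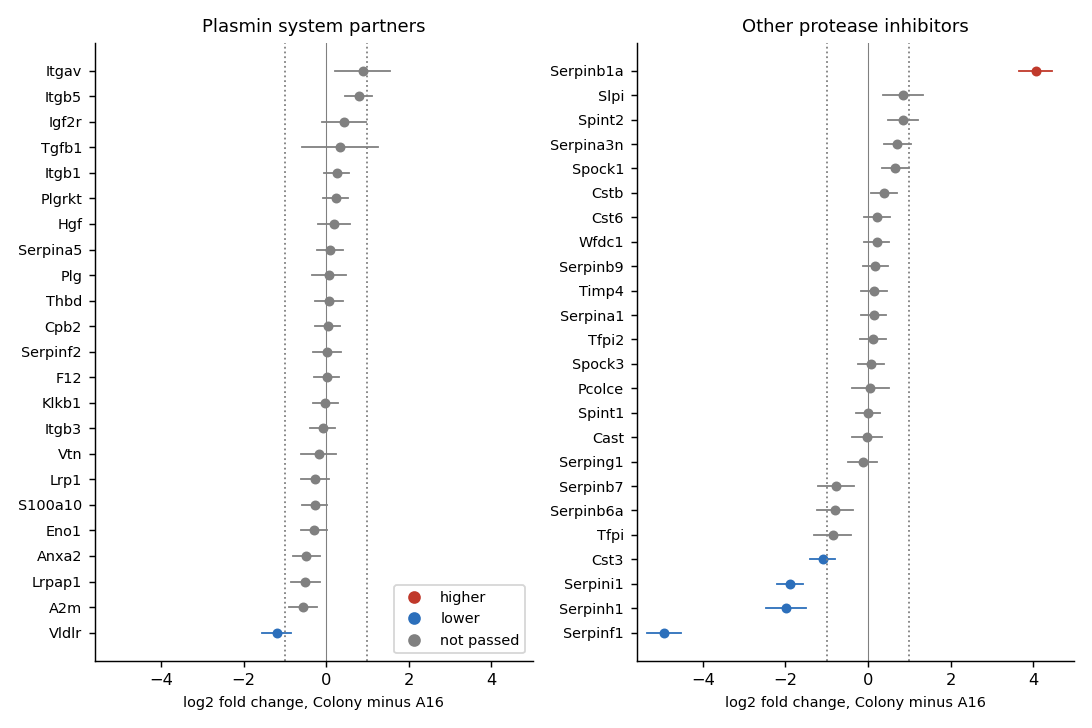
The log2 fold change (Colony minus A16) with its 95% confidence interval, each gene by its brightest probe set, n = 2 cultures per group. The left panel holds the 23 measured partners of the plasmin system and the right panel the 24 measured genes listed as other protease inhibitors. Red marks genes called higher, blue genes called lower and grey those that did not pass. Vldlr is the gene in blue on the left, and Serpinb1a at 4.06 and Serpinf1 at -4.94 are the ends of the right panel.

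The fibroblast label was checked with 10 marker genes. Vim, Col1a1 and Col1a2 lay at or above percentile 99.8 in A16, whereas Dcn and Lum were dim, at percentiles 11.1 and 25.2. Of the 10, 3 were called lower in Colony (Col1a1 -2.72, Col3a1 -1.40 and Thy1 -1.31 on the log2 scale) and 0 higher. The summed intensity of the 10 was 55762 to 68676 in A16 and 38100 to 43079 in Colony. Under the 2-fold limit, Col1a2 (-0.61, adjusted p = 0.0143, limma) and Lum (-0.78, adjusted p = 0.00663) were lower and Pdgfra (0.55, adjusted p = 0.0232) was higher. The other probe sets of Col1a1, Col1a2 and Thy1 were called lower, at -2.73, -1.01 and -2.73. Of 10 macrophage and leukocyte markers 1 was called higher (Csf1r, 4.01) and 0 lower, with sums of 1398 to 1603 in A16 and 1819 to 1876 in Colony, while the pan-leukocyte gene Ptprc lay at percentiles 23.1 and 24.7. Cd14, at percentiles 85.8 and 80.2, was lower in Colony but under the 2-fold limit (log2 difference -0.56, adjusted p = 0.0366, limma). Cd14 made up most of the A16 sums, and Cd14 and Csf1r together most of the Colony sums. Of 6 epithelial markers 1 was called higher (Krt8, 2.13), with sums of 909 to 1014 and 3154 to 3913, and Epcam lay at percentiles 10.4 and 6.4. Most of these sums was Krt8, which read 669.1 to 793.7 in A16 and 2891 to 3668 in Colony. Cdh1, at percentiles 14.6 and 30.5, was higher in Colony but under the 2-fold limit (log2 difference 0.74, adjusted p = 0.00979, limma). Its other probe set stood at 0.25. Of 5 endothelial and of 5 mast cell markers 0 were called in either direction, with sums of 168 to 188 and 186 to 233 for the first and 184 to 214 and 192 to 236 for the second. No marker value was at 0, since array summaries keep a positive background. Whether these markers have a part in the differences of the protease and inhibitor genes was not tested.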

How the data were processed

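The authors read the scanned Affymetrix arrays with GeneChip Operating Software, used Avadis to summarise the probes of a set by RMA and by PLIER, and deposited both as linear intensity, with the versions of RMA and PLIER not given in the sources used here. Log2 of the RMA intensity was taken here with nothing added, whereas the plan had assumed values already on the log2 scale. Both summaries compress dim signals, and no scan date was used, so no array batch was tested. After 57 control probe sets were left out, 31042 were fitted in R 4.3.3 with limma 3.58.1 (lmFit and eBayes), and figures were drawn with Python 3.11.15. Adjusted p-values are Benjamini-Hochberg values over all probe sets, from limma. Symbols came from the array annotation (20826 probe sets with 1 symbol, 436 with several, 9780 with none), and 20758 were updated by gene identifier to RefSeq of GRCr8. Members, lists and tests were chosen with earlier results of these data known. All members were named with every probe set, and of the other lists the called genes (at most 6 by size) with Plg, Lrp1 and Timp4; a further gene of this rule is not reported here. A gene of a list was represented by its brightest probe set. The fit was tested on simulated data. The alternatives were PLIER, with and without 16 added, other uses of the technical arrays, the replicate block, other normalization and filters, the methods' t-test, and leaving out each culture. The lowest PLIER value as deposited was already 16.0 on each array. The NA16 and tumour arrays were not analysed here.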

Additional observations from a re-analysis of the deposited data

How the results depend on the processing

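Over the 15 member probe sets 248 values were recomputed under the alternatives. Of these 238 kept their status, 3 lost a call and 7 gained one. For most of the 238 this meant not passing in either fit, since 12 of the 15 probe sets had no call to keep. Of the called values 0 changed sign, while 8 values that did not pass did. The log2 difference ranged from -2.43 to -1.23 for Plat, -1.93 to -1.47 for Serpinb2, 1.08 to 1.44 for Reck and 0.85 to 1.08 for Serpine2. Under the t-test on culture values with Benjamini-Hochberg adjustment 0 probe sets were called higher and 0 lower, in all, among the members and in the other lists. Its adjusted p was 0.158 for Plat, 0.161 for Serpinb2 and 0.183 for Reck. At the unadjusted threshold of this t-test 1070 were higher and 1313 lower, of which 1 and 2 were members. Among the members 2 were called higher, Reck and Serpine2, with the technical arrays averaged with biological replicate 2 or under quantile normalization, and 1 to 2 when 1 culture was left out. Leaving out 1 culture gave 2 to 3 members lower, 1282 to 1328 probe sets higher and 1498 to 2318 lower in all.

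Of the plasmin partners 1 was called higher with the technical arrays averaged with biological replicate 2, 0 to 1 when 1 culture was left out (1 without A16 replicate 1 or Colony replicate 2), and 0 were lower by the mean of all probe sets of a gene, where Vldlr did not pass. Of the other inhibitors 2 were higher with PLIER as log2(value + 16) and 3 with PLIER alone (Serpinb1a, Slpi and Spint2), and 1 to 2 higher and 4 to 6 lower when 1 culture was left out (2 higher without A16 replicate 1, 6 lower without Colony replicate 2).

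Timp2 (1367823_at) passed as lower in the fit with a replicate block (log2 difference -1.22, adjusted p = 0.0195, limma), which gave 1254 probe sets higher and 1867 lower in all and 1 and 3 members, and also with an intensity trend (adjusted p = 0.0493). Whether the replicate numbers pair the samples cannot be settled with 2 cultures per group. The deviations of replicate 1 from the group mean correlated at -0.15 between A16 and Colony. A crossed pairing, added after seeing the data, gave 1256 higher and 1879 lower. The cause of these changes of call was not tested. With 2 cultures per group, a difference near the 2-fold limit or in a dim probe set cannot be placed firmly on either side.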
